A study of Mus musculus with 16 samples.

Results

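The 10 genes described here make, carry or use microRNAs, or sit in the Lin28 and Trim71 branch that holds back the let-7 microRNAs. They were taken by name from the 3 stage tables, with earlier results of these data known. They are Lin28a, Lin28b, Trim71, Dicer1, Drosha, Dgcr8, Ago1, Ago2, Xpo5 and Tarbp2. All 10 were found among the 24421 genes of each table, and all 10 passed the filter on low values at every stage. The study sequenced RNA from C57BL/6 mouse embryos labelled miR-302 knockout (KO) or wild type (WT). The E7.5 libraries came from whole embryos, 2 KO and 2 WT. The E8.5 libraries came from sorted cells positive for Wnt1-Cre, a driver of the premigratory and migrating neural crest, with 4 KO and 3 WT libraries. The E9.5 libraries came from sorted Sox10+ cells, labelled postmigratory neural crest, with 2 KO and 2 WT libraries. The labels give neither the knockout allele beyond the name miR-302 nor the number of embryos behind a library, so p-values measure only the spread between these libraries. Of 16 labelled libraries 15 have values, and the E8.5 library KO4_5s is not analysed here.

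A microRNA gene is first transcribed as a long hairpin RNA. Drosha, an RNase III enzyme, and its RNA-binding partner Dgcr8 form the Microprocessor, which cuts the hairpin out in the nucleus. Xpo5 (exportin 5) carries the hairpin to the cytoplasm, where Dicer1 and its partner Tarbp2 cut it to a duplex, and an Argonaute protein such as Ago1 or Ago2 keeps a single strand as its guide. Lin28a and Lin28b bind let-7 precursors and block their maturation, and the let-7 family in turn represses Lin28a, Lin28b and Trim71, an RNA-binding ubiquitin ligase of the early embryo. The miR-302 family is abundant in pluripotent cells of the early embryo, while mature let-7 accumulates as cells differentiate.

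The mature microRNAs of both families are shown first because the let-7 seed and that of miR-302b and miR-302d define the matches counted in the 10 genes. They are the RefSeq sequences of build GRCm38.p6, with the seed (bases 2 to 8 from the 5′ end) in capitals. One let-7 is shown for the 9 let-7 and miR-98 names of the table, which share the seed GAGGUAG. miR-302b and miR-302d share the seed AAGUGCU, and miR-302c is offset by a base at its 5′ end, so the match of its own seed was not searched.
mmu-let-7a-5p: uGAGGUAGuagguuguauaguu
mmu-miR-302b-3p: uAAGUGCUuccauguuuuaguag
mmu-miR-302d-3p: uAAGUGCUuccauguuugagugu
mmu-miR-302c-3p: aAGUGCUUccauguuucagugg

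The 3′ untranslated regions of the 10 genes were searched on the transcript strand for CTACCTC or TACCTCA (let-7) and for AGCACTT or GCACTTA (miR-302). An octamer, CTACCTCA or AGCACTTA, counts once. A let-7 match was present in 6 of the 10 genes, against 14.8% of 21112 genes with an annotated 3′ untranslated region in GENCODE M21, and a miR-302 match in 4 of the 10, against 17.6%. These regions differ widely in length, from 169 bases in Drosha to 11064 in Ago2, and the shares of all genes are not matched for length. Lin28a, Lin28b and Trim71 are also reported let-7 targets, so the let-7 counts are not a test of enrichment. A let-7 octamer, found in 3.04% of all genes, was present in 4 of the 10. Trim71 held 6 let-7 matches, 4 of them octamers, Lin28b held 5 with 1 octamer, Ago2 held 4 with 1 octamer, and both matches in Lin28a were octamers. Ago1 and Tarbp2 held 1 let-7 match each. Drosha, Dgcr8 and Xpo5 held no match of either family. No miR-302 octamer was present in any of the 10 genes. A match is a description of these letters and not a measured site.

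The 4 octamers of Trim71 are shown because no other of the 10 genes holds as many. They lie on the minus strand of chromosome 9 (GRCm38) at chr9:114512462-114512489, chr9:114512366-114512393, chr9:114509037-114509064 and chr9:114509011-114509038, with the match in capitals.
Trim71 octamer A: tgcctaagtcCTACCTCAgcttaaattt
Trim71 octamer B: taatttctatCTACCTCAactctttgca
Trim71 octamer C: tatggattttCTACCTCAattttggcaa
Trim71 octamer D: aaaaagttgtCTACCTCAcgtcggcacc

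The octamers of both Lin28 genes and of Ago2 are shown for comparison. All are on minus strands, those of Lin28a at chr4:134005179-134005206 and chr4:134004541-134004568, that of Lin28b at chr10:45381012-45381039 and that of Ago2 at chr15:73097972-73097999.
Lin28a first: gcctgttgaaCTACCTCAtttttgccga
Lin28a second: cgccacaaacCTACCTCActgtgttgaa
Lin28b: ggcgggaagtCTACCTCAtgcaagcaca
Ago2: caatgtggatCTACCTCAgttaaacagt

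The miR-302 matches, all 7 bases long, are shown because miR-302 is the deleted family. Lin28b holds 2, at chr10:45378514-45378540 and chr10:45377016-45377042. Trim71 holds 1 at chr9:114510072-114510098, Dicer1 holds 1 at chr12:104690155-104690181, and Ago1 holds 2, at chr4:126438808-126438834 and chr4:126435294-126435320. All lie on minus strands.
Lin28b first: cactgatatgAGCACTTgctcattcac
Lin28b second: tcaaccacagGCACTTAgcaccaggct
Trim71: attggtgctaAGCACTTtggagagtgt
Dicer1: atgtaatgctGCACTTAggttcaagtc
Ago1 first: aggcactatgGCACTTAgctctgaggt
Ago1 second: gtatgatgttGCACTTAgcagccatgt

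Before the results, the libraries themselves differed in several respects. E7.5 libraries held 4912827 to 9184436 reads assigned to genes, E8.5 libraries 9008784 to 13517860, and E9.5 libraries 7300598 to 14861728. Mir302a to Mir302d, the miR-302 precursor genes, had 0 and 0 reads in the E7.5 KO libraries, against 14 and 25 in the WT libraries. Mir367, which lies in the same cluster, had 1 and 1 reads in the E7.5 KO libraries, against 0 and 3 in the WT libraries. At the later stages these 5 genes had 1 read in E8.5 KO2, of Mir367, and 1 read in each of 2 WT libraries, so the knockout cannot be checked there. The 12 let-7 precursor genes of the tables had 0 to 7 reads in all per library and were not tested. These libraries start from poly(A) tails and do not measure mature microRNAs. Neural crest markers, 10 of 10 with reads in every sorted library, summed to 145 to 272 RPM (reads scaled to a library total of 1000000) in E9.5 KO libraries and 655 to 681 in E9.5 WT libraries. Primitive erythroid markers, which the sorted populations should lack, summed to 21013 RPM in E9.5 KO1 with 8 of 8 read, to 22.9 in E9.5 KO2 and to 1.10 and 2.49 in the E9.5 WT libraries. Both E9.5 KO libraries carry the code number 171 and both WT libraries 209, so that genotype and code number cannot be told apart at that stage.

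The genes were compared with one another by RPKM, the RPM divided by the exon length in kilobases. Tarbp2 was the highest of the 10 and Ago1 the lowest in all 6 groups. Tarbp2 averaged 70.1 RPKM in E7.5 KO libraries and 65.2 in E7.5 WT libraries, and Ago1 0.696 RPKM in E7.5 KO libraries and 0.861 in E7.5 WT libraries. Lin28a stood second by mean in both genotypes at E7.5 and E8.5 and in E9.5 KO libraries. At E7.5 it averaged 24.7 RPKM in KO libraries and 20.8 in WT libraries. In E9.5 WT libraries Drosha, Xpo5, Lin28b and Lin28a averaged 30.3, 26.2, 26.2 and 24.4 RPKM, and the ranges of neighbours in this order overlapped. In E7.5 WT libraries Lin28a, Drosha, Xpo5 and Dgcr8 likewise overlapped from each to the next. At E8.5 all neighbours between Lin28a and Ago2 overlapped in both genotypes. In E9.5 KO libraries the gap below Tarbp2 was wide, 151 RPKM for Tarbp2 and 8.70 for Lin28a. Dgcr8 shares 19.1% of its exon length with Trmt2a on the opposite strand, and the kit does not mark strand, so its level may hold reads of that gene.

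**Figure D1:**
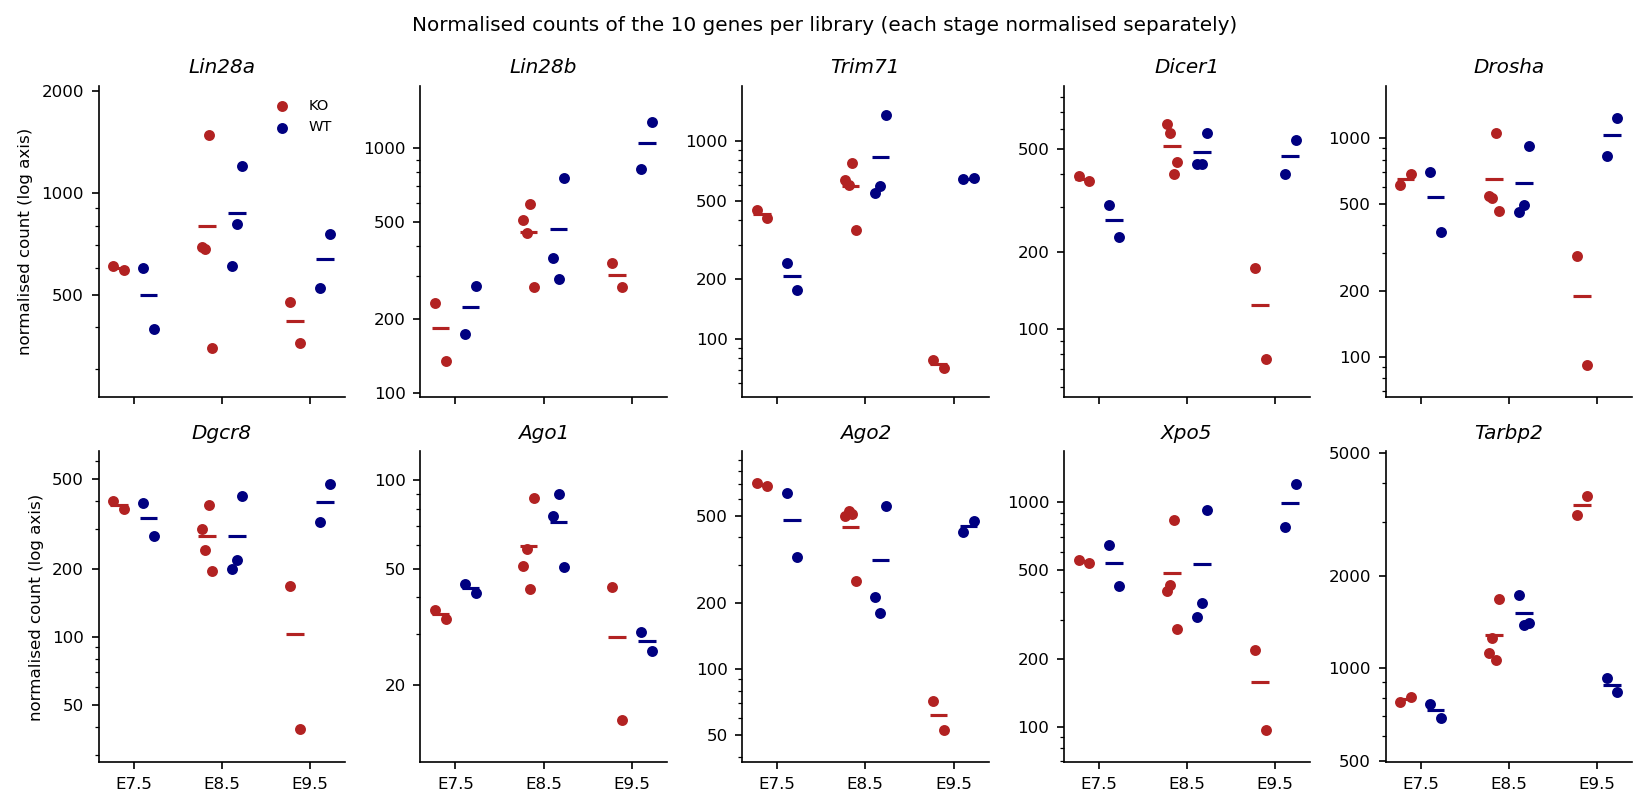
Normalised counts (y axis, log scale) of each of the 10 genes at 3 stages (x axis), KO in red left of WT in dark blue. Each point is a library and each bar a group mean; stages were normalised separately. At E9.5 the KO libraries lie below WT for 8 genes, above for Tarbp2 and on both sides for Ago1.

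Across stages the levels are described without a test, because the cells differ and the tables were normalised separately. With the stages taken from early to late, Lin28b averaged 26.5, 47.5 and 22.2 RPM in KO libraries and 32.0, 45.7 and 142 in WT libraries. Trim71 averaged 61.7, 61.5 and 5.44 RPM in KO libraries and 30.6, 81.0 and 86.7 in WT libraries. Lin28a averaged 86.4, 86.5 and 30.5 RPM in KO libraries, and 73.0, 83.2 and 85.6 in WT libraries. Of these 3 genes, Lin28b alone had both E9.5 WT libraries above every WT library of E7.5 and E8.5, and all 3 were lower in both E9.5 KO libraries than in any E9.5 WT library.

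At E7.5, none of the 10 genes passed the test between KO and WT whole embryos. Trim71 had the smallest p-value, at 2.06 times the WT level in KO embryos. The values tested are normalised counts, read counts divided by 1 factor per library, as log2(value + 1). A gene counted as called at a Benjamini-Hochberg adjusted p under 0.05 over all genes tested at the stage by limma. Of 12492 genes tested, 0% were called in either direction by limma and by edgeR. DESeq2 called 0.195% higher and 0.120% lower, none of the 10 among them. At an unadjusted p under 0.05 limma had 1 of the 10, Trim71, where 2.18% of all genes were higher and 0.905% lower.

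Trim71 had normalised counts of 447 and 409 in the E7.5 KO embryos, against 241 and 177 in the WT embryos. The groups did not overlap. Its log2 fold change of KO over WT was 1.05 (SE 0.31), with an unadjusted p of 0.00999 and a limma adjusted p of 1.0. With the trend over transcript length and GC content removed from each library it was 1.03, with an unadjusted p of 0.00244 and a limma adjusted p of 0.634. Within the libraries of code number 239, a single KO against both WT, it was 1.11. Trophoblast markers, 8 or 9 of 9 with reads in each library, summed to 4116 and 7117 RPM in the E7.5 KO libraries, against 1497 and 735 in the WT libraries. Prl3d1 alone had 17441 and 55347 reads in KO1 and KO2, against 11333 and 3486 in WT1 and WT2. Not every gene of the list went this way. Ascl2 had 148 and 242 reads in KO1 and KO2, against 357 and 167 in WT1 and WT2. Elf5 had 29 and 99, against 119 and 58. Whether trophoblast transcripts had a part in the Trim71 values was not tested. In whole embryos fewer cells of a type and less RNA per cell cannot be told apart.

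Dicer1 and Ago2 also lay higher in both KO embryos without passing the test. Dicer1, the cytoplasmic RNase III, had normalised counts of 392 and 378 in KO embryos, against 305 and 229 in WT embryos. Ago2, the Argonaute with slicer activity, had 706 and 689 in KO embryos, against 637 and 325 in WT embryos. WT2 was the lower of the WT embryos for every one of the 10 genes but Lin28b, and without it the log2 fold change of Ago2 was 0.13, against 0.61 with all libraries and 1.10 without WT1. The uterine markers Prss29, Prss28 and Ltf had at most 5, 1 and 1 reads in KO embryos. In WT2 they had 4822, 1831 and 1043 reads, and in WT1 198, 45 and 80. Prl8a2 of the same list was instead lowest in WT2, with 234 reads. It had 9814 in WT1 and 4277 and 7394 in KO1 and KO2. The whole uterine list, 4 to 6 of 6 with reads in KO embryos and 6 of 6 in WT embryos, summed to 841 to 874 RPM in KO embryos and 1114 to 1346 in WT embryos. The Spearman correlation across genes of the deviation from the stage mean with GC content was 0.116 and 0.267 in KO embryos, against 0.317 in WT1 and -0.447 in WT2. The part of these differences in the values of the 10 genes was not tested. Tarbp2 had 777 and 806 in KO embryos, against 766 and 691 in WT embryos. Ago1 had 36.2 and 33.7 in KO embryos, against 44.3 and 41.5 in WT embryos. These made 4 genes with both KO embryos above both WT embryos and 1 with both below. Of all genes tested, 16.1% and 12.7% did the same.

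The remaining genes overlapped between genotypes at E7.5. Lin28a had 608 and 593 in KO embryos, against 599 and 394 in WT embryos. Lin28b had 232 and 135 in KO embryos, against 174 and 274 in WT embryos. Lin28b thus had a log2 fold change of -0.30 (SE 0.40). Drosha had 615 and 684 in KO embryos, against 704 and 372 in WT embryos. Dgcr8 had 399 and 367 in KO embryos, against 389 and 280.2 in WT embryos. Xpo5 had 554 and 537 in KO embryos, against 646 and 423 in WT embryos. Their log2 fold changes ran no further from 0 than 0.34, the value of Drosha. The median over the 10 genes was 0.26, and over all genes tested -0.0099.

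At E8.5, none of the 10 genes passed the test in Wnt1-Cre+ cells, and none had an unadjusted p under 0.05. limma and edgeR called 0% of the 12257 genes in either direction, and DESeq2 0.187% higher and 0.0849% lower, none of the 10 among them. At an unadjusted p under 0.05 limma had 3.14% of all genes higher and 2.91% lower. In none of the 10 were the 4 KO libraries all above or all below the 3 WT libraries, which 3.71% and 2.82% of all genes were. The median log2 fold change of the 10 was -0.02 and of all genes -0.03.

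The spread within genotype was wide at this stage for the 6 genes given here, and for Ago2, given below. Lin28a had normalised counts of 690.4, 683, 1483 and 348 in KO1 to KO4, against 608, 811 and 1202 in WT1_5s, WT2 and WT3. Lin28b had 511, 452, 589.8 and 272 in KO1 to KO4, against 356, 292 and 759 in the WT libraries. Trim71 had 637, 599, 772 and 354 in KO1 to KO4, against 546, 589.8 and 1354 in the WT libraries. In all 3 genes KO3 and WT3 were the highest libraries of their genotype and KO4 the lowest KO library. The Microprocessor and export genes had the same order at the top. Drosha had 547, 534, 1059 and 464 in KO1 to KO4, against 462, 495 and 922 in the WT libraries. Dgcr8 had 299, 243, 381 and 195 in KO1 to KO4, against 199, 219 and 419 in the WT libraries. Xpo5 had 403, 429, 836 and 272 in KO1 to KO4, against 309, 355 and 928 in the WT libraries.

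These libraries also differed in how their values varied with transcript length. The Spearman correlation across genes of a library's deviation from the stage mean with exon length was 0.495 in KO3 and 0.507 in WT3. It was -0.429 in KO4, -0.457 in WT1_5s and -0.384 in WT2, and 0.0317 and -0.0262 in KO1 and KO2. Genes are not independent replicates, and these correlations are a description. KO4, WT1_5s and WT2 carry the code numbers 163 and 169, and the rest 128, 157 and 214. With these sets as a block, Trim71 had a log2 fold change of -0.86 (unadjusted p 0.0010, limma adjusted p 0.257), against -0.42 (SE 0.36) without the block. With the length and GC trend removed, and no block, Trim71 stood at -0.23 (limma unadjusted p 0.326, limma adjusted p 0.761). Within codes 163 and 169 Trim71 had 354 in KO4, against 546 and 589.8 in WT1_5s and WT2. Within the other codes it had 637, 599 and 772 in KO1 to KO3, against 1354 in WT3. KO was below WT in both sets.

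Ago2 was the E8.5 member with the largest log2 fold change. It had 498, 529, 512 and 253 in KO1 to KO4, against 214, 181 and 555 in WT1_5s, WT2 and WT3. KO4 and WT3 were on the other genotype's side, and the log2 fold change was 0.63 (SE 0.40, limma adjusted p 0.857). It was 0.11 with the code block, and 0.74 once the trend over length and GC was removed (unadjusted p 0.0260, limma adjusted p 0.486). Dicer1 had 629, 577, 402 and 446 in KO1 to KO4, against 440.3, 439.9 and 579.7 in the WT libraries. Ago1 had 50.9, 58.3, 42.7 and 86.9 in KO1 to KO4, against 75.9, 89.7 and 50.8 in the WT libraries. Tarbp2 had 1122, 1254, 1063 and 1683 in KO1 to KO4, against 1731, 1387 and 1402 in the WT libraries. Ago1 and Tarbp2 were highest in KO4 among KO libraries, where the 6 genes above were lowest. Primitive erythroid markers summed to 1652 and 2520 RPM in KO1 and KO2, 1.78 in KO3 and 98.2 in KO4, against 0.555 to 0.864 in WT libraries. Without KO1 and KO2 0 of the 10 and 0% of all genes were called as well, and Ago2 stood at 0.37.

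At E9.5, 8 of the 10 genes passed the test in Sox10+ cells. Tarbp2 rose, by a log2 fold change of 1.94, and Trim71, Ago2, Xpo5, Drosha, Dgcr8, Dicer1 and Lin28b fell. In the deposited values Trim71 was 8.54-fold lower and Ago2 7.20-fold lower in KO cells, ahead of the others; with the trend over transcript length and GC content removed, Drosha and Xpo5 came first, at log2 fold changes of -1.66 and -1.57. Lin28a and Ago1 did not pass. Calls were frequent at this stage: of 12000 genes tested by limma, 24.5% were higher and 23.0% lower. edgeR called 1 higher and 6 lower of the 10 (24.6% and 21.0% of all genes), leaving out Dgcr8. DESeq2 called 1 higher and 7 lower (26.2% and 22.7% of all genes). The median log2 fold change of the 10 was -2.12, and of all genes -0.14.

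The difference between genotypes at E9.5 moved with transcript length across the whole table. With the genes in 5 equal classes by exon length, in the class with the shortest (up to 1797 bases) the median log2 fold change was 1.74 and 94.9% of genes were positive. In the class with the longest (5497 bases or more) it was -1.57 and 16.2% were positive. The Spearman correlation of a library's deviation with exon length was -0.489 and -0.593 in the KO libraries and 0.614 and 0.673 in the WT libraries. Tarbp2, with 1625 bases of exon, lies in the shortest class. Trim71 (9332), Dicer1 (9851), Ago2 (13800) and Ago1 (7227) lie in the longest. Lin28b (5402), Xpo5 (5081), Drosha (4571) and Dgcr8 (4320) lie in the class next to the longest, where the median was -1.25, and Lin28a (3505) in the middle class, where it was -0.56. With the length and GC trend removed from each library, 5 of the 10 were called, Tarbp2 higher and Trim71, Drosha, Ago2 and Xpo5 lower. In that fit 12.2% of 11922 genes were higher and 10.9% lower, and the median of the 10 was -0.89 and of all genes -0.15. With the trend removed and a WT library left out, 0 of the 10 were called, where 6.86% of all genes were called in either direction without WT1 and 6.09% without WT2. In these fits Trim71 stood at -1.31 and -1.71, Drosha at -1.91 and -1.52, Xpo5 at -1.82 and -1.43, Ago2 at -1.20 and -1.45, and Tarbp2 at 0.58 and 0.60. These values lie near those with all 4 libraries, which ran from -1.66 for Drosha to 0.62 for Tarbp2.

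**Figure D2:**
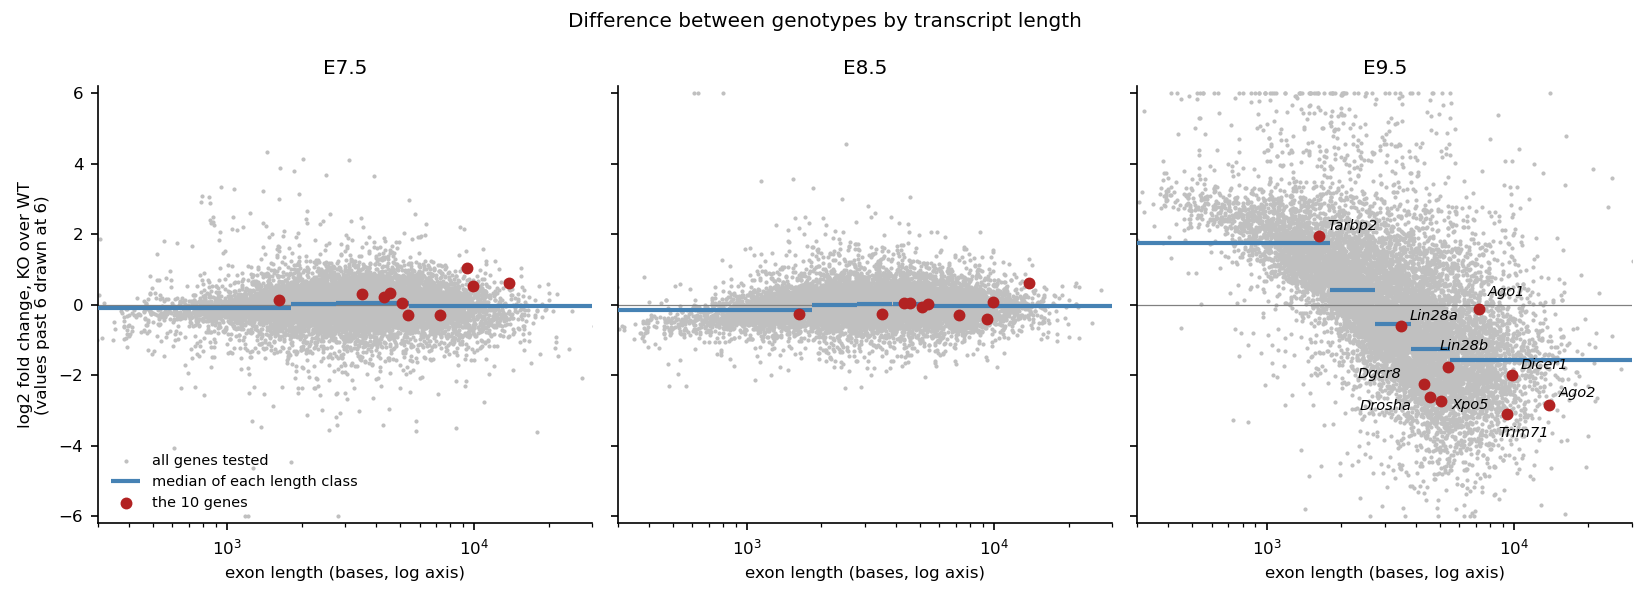
Log2 fold change of KO over WT (y axis) against exon length in bases (x axis, log scale) for all genes tested with a length, at 3 stages. Grey points are genes, blue bars the median of each of 5 classes by length, and red points the 10 genes, named at E9.5. At E9.5 the medians run from 1.74 in the shortest class to -1.57 in the longest; at E7.5 and E8.5 they stay between -0.15 and 0.04.

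Trim71 showed little spread within genotype, and its difference was the largest of the 10 in the deposited values. It had normalised counts of 78.1 and 71.4 in the E9.5 KO libraries, against 639.9 and 650.5 in the WT libraries. The log2 fold change was -3.09 (SE 0.26, limma adjusted p 0.00121), and -1.48 (SE 0.35, limma adjusted p 0.0409) with the trend removed. Without KO1, the library with erythroid transcripts, it was -3.16, and then Drosha, Xpo5 and Dgcr8 stood lower. In the authors' deposited table it stands at -3.11.

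Of the Lin28 genes, Lin28b was called and Lin28a was not, which is no test of a difference between them. Lin28b had 339 and 270.3 in KO libraries, against 825 and 1286 in WT libraries. Its log2 fold change was -1.76 (SE 0.29, limma adjusted p 0.00725), and -0.51 (limma adjusted p 0.133) with the trend removed. Lin28a had 475 and 359 in KO libraries, against 522 and 753 in WT libraries. Both KO libraries were below both WT libraries, but the log2 fold change of -0.60 (SE 0.28) did not pass (limma adjusted p 0.129). Lin28a stood at -0.11 with the trend removed.

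Both Microprocessor genes fell, with a wide gap between the KO libraries. Drosha had 288 and 91.8 in KO libraries, against 827 and 1239.9 in WT libraries, a log2 fold change of -2.63 (SE 0.57, limma adjusted p 0.0166). It was -1.66 (limma adjusted p 0.0429) with the trend removed. Dgcr8 had 168 and 39.1 in KO libraries, against 321 and 471 in WT libraries, a log2 fold change of -2.24 (SE 0.71, limma adjusted p 0.0492). The lower KO value is 23 reads in KO2. Dgcr8 was not called by edgeR (edgeR adjusted p 0.0729), with the trend removed (-1.31, limma adjusted p 0.169), or without either WT library. It was called in 5 of the 11 alternative fits that left out no library.

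Xpo5, the exporter, fell as well. Xpo5 had 221 and 96.9 in KO libraries, against 779.7 and 1207 in WT libraries, a log2 fold change of -2.72 (SE 0.46, limma adjusted p 0.00791). It was -1.57 (limma adjusted p 0.0237) with the trend removed. Dicer1 had 173 and 76.5 in KO libraries, against 400.0 and 541 in WT libraries, a log2 fold change of -2.01 (SE 0.46, limma adjusted p 0.0190). Without the trend Dicer1 stood at -0.50 (limma adjusted p 0.267), and it was not called without either WT library. Tarbp2, which binds Dicer1, went the opposite way. It had 3148 and 3628 in KO libraries, against 932 and 837 in WT libraries, 3.82-fold higher (SE 0.17 on the log2 scale, limma adjusted p 0.00127). Its log2 fold change with the trend removed was 0.62 (limma adjusted p 0.0287).

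Of the 2 Argonautes, Ago2 was called and Ago1 was not, which is no test of a difference between them. Ago2 had 71.8 and 52.7 in KO libraries, against 424 and 475 in WT libraries, a log2 fold change of -2.85 (SE 0.32, limma adjusted p 0.0026). After removal of the trend it was -1.27 (limma adjusted p 0.0312). Ago1 had 43.3 and 15.3 in KO libraries, against 30.4 and 26.2 in WT libraries. The Ago1 values rest on 9 to 52 reads per library and did not differ beyond the spread (log2 fold change -0.12, SE 0.73, limma adjusted p 0.899). With the trend removed Ago1 stood at 1.35 (limma adjusted p 0.163). In the 10, 1 gene had both KO libraries above and 8 both below the WT libraries, as 38.6% and 41.7% of all genes did.

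Leaving out each E9.5 library in turn kept the direction of all 8 called genes. Trim71, Ago2, Xpo5, Drosha and Tarbp2 were called in all 4 of these fits, Lin28b in 3, and Dicer1 and Dgcr8 in 2. Lin28b was lost without WT2, and Dicer1 and Dgcr8 without either WT library. Of all genes, 73.5% were called in either direction without KO1, 63.4% without KO2, 16.8% without WT1 and 16.0% without WT2. In each of these fits the spread comes from the genotype with 2 libraries, and the lone library is assumed to vary like them. The KO libraries set the size of several differences. Drosha stood at -3.45 without KO1 and -1.81 without KO2, Dgcr8 at -3.28 and -1.21, Xpo5 at -3.31 and -2.13, and Dicer1 at -2.59 and -1.42. Trim71 (-3.16 and -3.03), Ago2 (-3.07 and -2.63), Lin28b (-1.93 and -1.60) and Tarbp2 (2.04 and 1.83) moved less. KO1 is the library whose erythroid markers stand apart, and without it 8 of the 10 were called. Neural crest, dorsal neural tube and endothelial markers summed lower in both KO libraries than in both WT libraries, while erythroid, visceral endoderm, macrophage, otic and pluripotency markers summed higher. Dorsal neural tube markers summed to 11.2 to 29.1 RPM in KO libraries (3 to 4 of 7 with reads) and 49.4 to 56.2 in WT libraries (6 of 7). Visceral endoderm markers, 5 to 6 of 7 with reads in KO libraries and 4 to 7 in WT libraries, summed to 57.2 to 147 RPM in KO libraries and 3.50 to 3.84 in WT libraries. Within that list Amn went the other way, with 0 and 3 reads in KO libraries, against 9 and 17 in WT libraries. Macrophage markers, 6 of 6 with reads in KO libraries and 1 of 6 in WT libraries, summed to 8.74 to 18.5 RPM in KO libraries and 1.21 to 1.37 in WT libraries. Otic markers summed to 4.07 to 6.23 RPM in KO libraries and 1.28 to 2.74 in WT libraries (2 to 3 of 4 and 2 to 4 of 4 with reads). Otx1 had 63 and 29 reads in KO libraries, against 12 and 12 in WT libraries. Oc90 had 0 reads in both KO libraries, against 2 and 0 in WT libraries. Pluripotency markers summed to 61.6 to 83.9 RPM in KO libraries and 24.3 to 28.9 in WT libraries (3 of 10 and 5 to 6 of 10 with reads). The defining Pou5f1 had 0 reads in both KO libraries. Nanog had 868 and 353 reads in KO libraries, against 90 and 175 in WT libraries. Otx2 had 82 and 52, against 31 and 33, and Sox2 86 and 125, against 88 and 146. The part of all these marker differences in the values of the 10 genes was not tested.

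**Figure D3:**
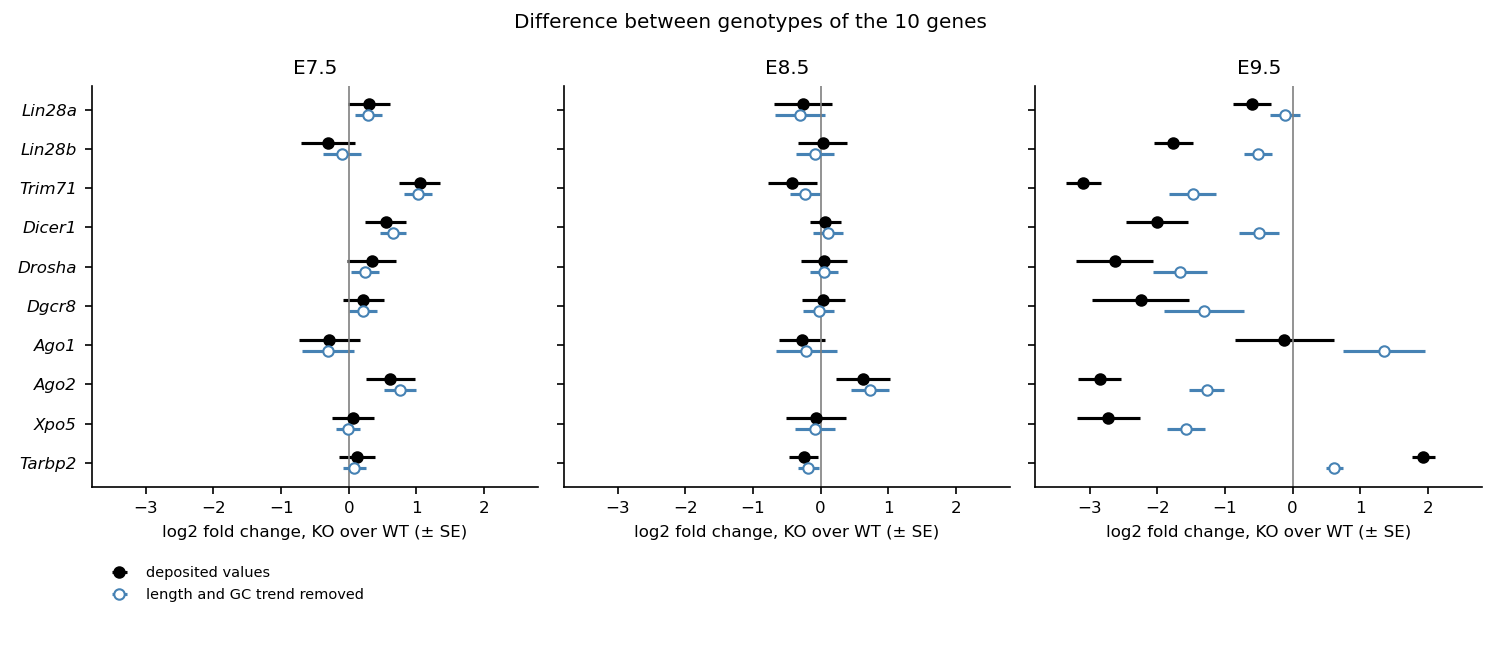
Log2 fold change of KO over WT (x axis, ± SE of the limma fit) of the 10 genes (rows) at 3 stages. Filled black points use the deposited values and open blue points those with the length and GC trend of each library removed. At E9.5 the 2 sets part, by most for Trim71, from -3.09 to -1.48; at E7.5 and E8.5 they lie close together.

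The difference between genotypes was itself compared between stages in a joined fit of 13858 genes. Against E8.5, 8 of the 10 had a different effect at E9.5, 7 lower and Tarbp2 higher, where 22.5% of all genes were lower and 19.8% higher. Against E7.5, 6 were lower and Tarbp2 higher, where 17.8% and 16.2% of all genes were. Between E8.5 and E7.5 limma called none of the 10 and 0% of all genes. Against E7.5 the largest difference was that of Trim71, and against E8.5 that of Ago2. For Trim71 the effect at E9.5 minus that at E7.5 was -4.14 on the log2 scale (SE 0.58, limma adjusted p 0.00134), and was called after removal of the trend too (limma adjusted p 0.00209). For Ago2 the E9.5 effect minus the E8.5 effect was -3.47 (SE 0.62, limma adjusted p 0.00103), and for Tarbp2 it was 2.19 (SE 0.30, limma adjusted p 0.000388). The E8.5 effect of Trim71 minus its E7.5 effect was -1.46, with an unadjusted p of 0.0129 and a limma adjusted p of 1.0. The 3 contrasts share libraries, so their values for a gene are not independent.

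The ratio of Lin28a to Lin28b, which compares genes in the same library, was described by its log2 value. At E9.5 it was 0.49 and 0.41 in KO libraries, against -0.66 and -0.77 in WT libraries. Lin28a was thus above Lin28b in both KO libraries and below it in both WT libraries, on counts that are not per length. The difference of 1.16 had an exact permutation p of 0.333, two-sided, the smallest that 2 against 2 allows. At E7.5 the ratio was 1.38 and 2.13 in KO libraries and 1.78 and 0.52 in WT libraries (exact permutation p 0.667). At E8.5 it averaged 0.68 ± 0.45 in KO libraries and 0.97 ± 0.44 in WT libraries (SD, n = 4 and 3, exact permutation p 0.429, smallest possible 0.0286). Lin28b is the longer of the 2 transcripts. The ratio of Drosha to Dgcr8 differed by 0.13, 0.0078 and -0.39 between KO and WT at the 3 stages in turn (exact permutation p 0.667, 0.971 and 0.333). Adjusted over these 6 comparisons, no p was under 0.80.

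**Figure D4:**
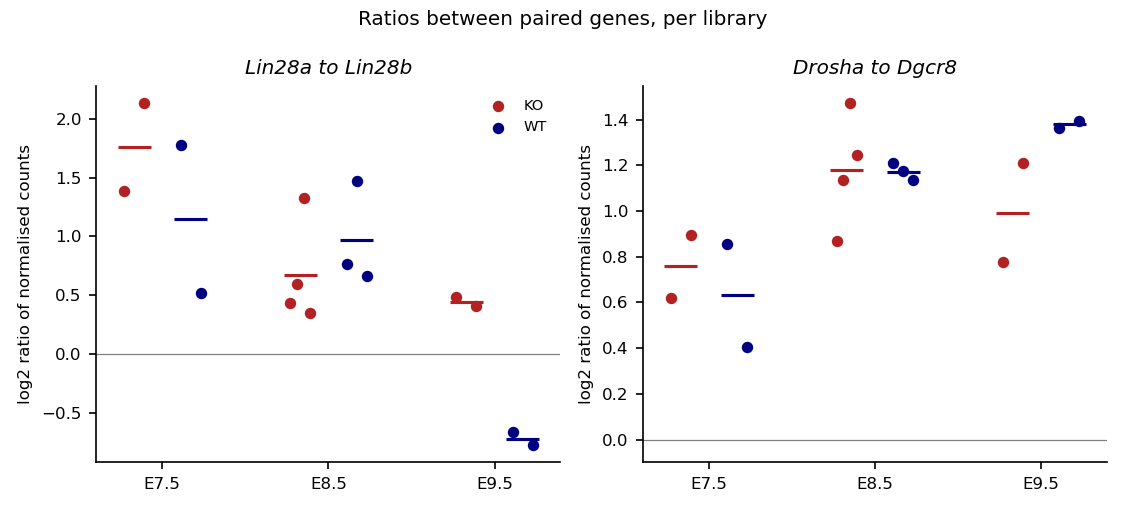
Log2 ratio of normalised counts (y axis) of Lin28a to Lin28b and of Drosha to Dgcr8 per library at 3 stages (x axis), KO in red left of WT in dark blue; bars are means. At E9.5 the Lin28a to Lin28b ratio is above 0 in both KO libraries and below 0 in both WT libraries.

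Other genes of the pathway were counted from lists that work alongside the 10. At E7.5 limma, edgeR and DESeq2 called 0 of their 82 tested genes, with 1 at an unadjusted limma p under 0.05. At E8.5 they called 0 of 82, with 5 at an unadjusted limma p under 0.05. After adjustment limma called 0% of all genes at both stages. At an unadjusted limma p under 0.05, 2.18% of all genes were higher and 0.905% lower at E7.5. At E8.5 these shares were 3.14% and 2.91%. At E9.5 the counts are read against 24.5% of all genes higher and 23.0% lower. With the length and GC trend removed they are read against 12.2% higher and 10.9% lower. Among 9 helpers of nuclear processing, 2 rose and 3 fell. Ran, the GTPase that powers Xpo5, rose by 1.28 on the log2 scale (limma adjusted p 0.00443), and by 1.21 with the trend removed. Prkra, the other Dicer1 partner, rose by 1.19 (limma adjusted p 0.0165), but stood at 0.0051 with the trend removed. Srrt fell by 1.66, the helicase Ddx5 fell by 0.86, and Khsrp, which binds some let-7 precursors, fell by 1.92. Khsrp also had the smallest p of that list at E7.5, 1.37 higher in KO embryos with an unadjusted p of 0.00833 and a limma adjusted p of 1.0. Ddx17 had the smallest at E8.5 (-0.64, unadjusted p 0.0441).

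Of 6 genes listed under tailing and decay of let-7 precursors, 4 fell at E9.5 and 1 rose. Zcchc11 (Tut4) and Zcchc6 (Tut7), the uridylating enzymes, fell by 1.82 and 2.14 on the log2 scale. Dis3l2, the exonuclease for tailed precursors, fell by 1.21, Dis3 fell by 2.06, and Lsm4 rose by 2.33. With the length and GC trend removed 0 of the 6 were called. Of 7 chaperones for Argonaute loading 4 fell. With the trend removed 4 were called lower as well, but not the same 4. Hspa8 fell by 0.66 (limma adjusted p 0.00939) and Stip1 fell by 0.57 (limma adjusted p 0.0187). Hspa8 stood at -1.09 and Stip1 at -1.31 with the trend removed. Dnaja2 and Hsp90aa1 fell by 0.53 and 0.55, and with the trend removed they stood at -0.33 (limma adjusted p 0.105) and -0.027 (limma adjusted p 0.912).

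Further down the pathway, none of 5 other Argonautes and GW182 proteins was called at E9.5 by limma, edgeR or DESeq2. Of these Ago3 was the single gene with an unadjusted p under 0.05 (-2.12, unadjusted p 0.0392). Of 16 silencing effectors 2 rose and 8 fell. Eif4e2, a cap-binding repressor of translation, rose by 1.43 (limma adjusted p 0.00232). The deadenylase subunits Cnot6 and Pan2 fell by 1.80 and 2.63, the helicase Ddx6 fell by 1.85, and the decapping factors Dcp1a and Edc4 fell by 2.45 and 2.40. With the trend removed 3 were called higher and 2 lower. Of 7 turnover genes 5 fell, among them Xrn2 (by 1.56) and Zswim8 (by 2.24), which acts in target-directed decay. With the trend removed 1 was called higher and 2 lower.

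Beside Lin28a, Lin28b and Trim71, 34 other genes reported as let-7 targets were tested at E9.5. Of these 1 rose and 20 fell, where 24.5% of all genes were called higher and 23.0% lower. The median log2 fold change was -1.24, against -0.14 over all genes. With the length and GC trend removed 2 were called higher and 10 lower, where 12.2% and 10.9% of all genes were. The median in that fit was -0.60, against -0.15 over all genes. The 3 Igf2 mRNA-binding proteins fell, Igf2bp1 by 2.27 (limma adjusted p 0.00297), Igf2bp2 by 2.15 (limma adjusted p 0.00342) and Igf2bp3 by 1.61 (limma adjusted p 0.00325). Igf2bp1 and Igf2bp2 were called with the trend removed as well, at -0.70 and -1.40. Cdc25a, a cell cycle phosphatase, fell by 1.76 and Zfp322a by 2.40. Cdc34, a ubiquitin-conjugating enzyme with 1266 bases of exon, rose by 1.90 and stood at 0.13 with the trend removed. At E8.5 none of 33 was called by limma, edgeR or DESeq2. At an unadjusted limma p under 0.05, 2 were higher and 2 lower in KO cells, where 3.14% and 2.91% of all genes were. Ccnd1 (cyclin D1) had the smallest p there, 0.84 higher in KO cells (limma unadjusted p 0.00506, limma adjusted p 0.777). Cdk6 followed at 1.15 (limma unadjusted p 0.00639). Irs2 came next and was lower in KO cells, at -0.46 (limma unadjusted p 0.0313, limma adjusted p 0.807).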

How the data were processed

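Poly(A)-primed SMART-Seq v4 cDNA, which does not mark strand, was made into Nextera XT libraries, per the labels' protocols. The submitters' processing notes name FastQC 0.11.5, STAR 2.7.0f and the build mm10; the counter, its annotation and the tool for normalisation are not given in the sources read. The authors deposited 1 table per stage of normalised signal, read counts divided by a factor per library, and 100% of values are whole reads to within 0.01, which gave each library's depth. The authors also deposited tables of selected genes with the mean signal, a log2 fold change, a test score, and p-values; those of E8.5 and E9.5 have means that match the stage tables, and the E7.5 tables, whose means mostly do not, were not used.

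Groups come from the sample titles. Values were analysed as log2(value + 1) by limma 3.58.1 (R 4.3.3, trended empirical Bayes, two-sided) in genes with a stage mean of at least 10, with Benjamini-Hochberg adjustment at 0.05 over all genes tested. Stage differences came from a joined fit. The whole reads were also fitted with edgeR 4.0.16, by its quasi-likelihood test, and with DESeq2 1.42.0. The length and GC trend was a loess curve (span 0.3) per library over exon length and GC content from GENCODE M21. The fits were tested on simulated data with 200 changed genes. Other alternatives were the pseudocount (8, 0.1), the minimum mean (100, none), TMM and quantile scaling, an adjusted p of 0.1, the joined fit, blocks by replicate or code number, and leaving out libraries. All 10 genes are named; of each list up to 6 called genes by p, or otherwise up to 3 with the smallest p, could be named. The 10 genes and the lists were chosen with earlier results of these data known.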

Additional observations from a re-analysis of the deposited data

Results flagged for a closer look

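In groups of 4 or more libraries (the E8.5 KO group of each of the 10 genes, 10 groups in all), 2 values stood apart from the others of their group. Drosha had 1059 normalised counts in E8.5 KO3, where the gap to the next library was 0.860 of the group's range. Ago2 had 253 normalised counts in E8.5 KO4, with a gap of 0.890 of the range. Chance marks about 1 in 20 such groups. KO3 was also the highest E8.5 KO library for Lin28a, Lin28b, Trim71, Dgcr8 and Xpo5, and KO4 the lowest; their correlations with exon length were 0.495 and -0.429.

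The difference between KO and WT was not the same at E9.5 as at the earlier stages for most of the 10 genes, by limma's interaction contrast in the joined fit. Calls were frequent in both contrasts. Of 13858 genes, 17.8% were lower and 16.2% higher against E7.5, and 22.5% and 19.8% against E8.5. Set against E7.5, the E9.5 effect on the log2 scale differed by -4.14 for Trim71 (limma adjusted p 0.00134), -3.46 for Ago2 (0.00426), -2.97 for Drosha (0.00912), -2.78 for Xpo5 (0.0161), -2.55 for Dicer1 (0.00410), -2.46 for Dgcr8 (0.0257) and 1.81 for Tarbp2 (0.00350). Set against E8.5, it differed by -3.47 for Ago2 (limma adjusted p 0.00103), -2.68 for Trim71 (0.00154), -2.68 for Drosha (0.00554), -2.65 for Xpo5 (0.00821), -2.28 for Dgcr8 (0.0163), -2.07 for Dicer1 (0.00279), -1.80 for Lin28b (0.0234) and 2.19 for Tarbp2 (0.000388). With the length and GC trend removed, Trim71, Drosha, Ago2 and Xpo5 were called in both contrasts, Dicer1 against E7.5 alone and Tarbp2 against E8.5 alone. No share of all genes is given for the contrasts with the trend removed.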

How the results depend on the processing

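At E7.5 and E8.5 the number of the 10 genes called was 0 under every alternative run. At E9.5 it was 8, and 5 with no minimum mean, 5 with the length and GC trend removed, 5 to 8 leaving out 1 library, and with the trend removed 0 without WT1 and 0 without WT2; the cause was not tested. The 8 called genes gave 152 values under the alternatives, all in the same direction, 118 of them called. The 8 genes with another effect at E9.5 than at E8.5 became 5 with the trend removed and 5 to 8 leaving out 1 library. Replicate numbers did not pair the libraries (same-number correlations of -0.116 at E7.5, 0.0759, -0.0248 and 0.554 at E8.5, and -0.171 at E9.5). The replicate block gave 0, 0 and 8 called genes. Dgcr8, with a limma adjusted p of 0.0492 at E9.5, was called there in 5 of the 11 alternatives that left out no library.

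Values near 0 changed sign. At E7.5 Xpo5 stood at -0.011 with quantile scaling and -0.0062 with the trend removed, and Lin28b at 0.088 within code 239. Leaving out 1 library ranged from -0.69 to 0.088 for Lin28b, -0.12 to 0.80 for Drosha, -0.022 to 0.45 for Dgcr8 and -0.24 to 0.36 for Xpo5. At E8.5 Lin28b was -0.015 by edgeR, -0.040 by DESeq2, -0.084 with the trend removed, -0.41 with the code block, -0.10 without KO1 and KO2 and -0.082 with both changes. Dicer1 was -0.064 with the code block, -0.19 without KO1 and KO2 and -0.16 with the trend removed too. Dgcr8 was -0.028 with the trend removed and -0.30 with the code block, where Drosha was -0.26 and Ago1 0.026. Xpo5 was 0.032 without KO1 and KO2, 0.010 with the trend removed too, and 0.17 with the replicate block, where Lin28a was 0.079. Leaving out 1 E8.5 library ranged from -0.62 to 0.079 for Lin28a, -0.24 to 0.44 for Lin28b, -0.65 to 0.0015 for Trim71, -0.039 to 0.20 for Dicer1, -0.21 to 0.36 for Drosha, -0.16 to 0.37 for Dgcr8 and -0.37 to 0.43 for Xpo5. At E9.5 Ago1 was 0.060 with quantile scaling, 0.074 by edgeR, 0.10 by DESeq2 and 1.35 with the trend removed, where leaving out KO1, KO2, WT1 or WT2 gave 0.99, 1.74, 1.58 and 1.02. Ago1 ranged from -0.84 to 0.60 leaving out 1 library, and Lin28a was 0.045 with the trend removed without WT2. Leaving out 1 library, the Lin28a to Lin28b ratio difference at E7.5 ranged from -0.019 to 1.23, and that of Drosha to Dgcr8 from -0.10 to 0.35 at E7.5 and -0.090 to 0.11 at E8.5. Ago1, with 9 to 75 reads per library, is limited by depth.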
